A study of Ovis aries with 27 samples.

Results

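A group of 6 members of the SLC25 family of transport proteins, SLC25A10, SLC25A11, SLC25A17, SLC25A26, SLC25A33 and SLC25A38, were followed in the heart septum of 27 sheep fetuses. They are the SLC25 genes that the array's gene name, RefSeq accession or probe description identified, with the adenine nucleotide carriers and the acylcarnitine carrier SLC25A20 left out. They are represented by 7 of the 15008 probes, since SLC25A11 has 2. The set was chosen by gene family with earlier results of these data known, among them the change of SLC25A33 between 140 d and 130 d control fetuses. That comparison is therefore given as a description, without a test. The tests of the other comparisons may not be wholly independent of the choice. One array was hybridised per fetus, in 1 colour, with Cy3-labelled cRNA.

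The ewes, not the fetuses, were infused, continuously, with cortisol at 1 mg/kg/day or with vehicle. The groups were cortisol at 140 d of gestation (7 fetuses), control at 140 d (8 fetuses), cortisol at 130 d (6 fetuses) and control at 130 d (6 fetuses). The older cohort was sampled at 139 to 144 d after about 25 days of infusion begun at about day 115. The younger cohort was sampled at 129 to 131 d after about 10 days of infusion begun at about day 120, although another label gives a start at about day 115 for every ewe. Age, cohort and length of infusion therefore cannot be told apart in a comparison of 140 d with 130 d. One pair of twins is among the 8 control 140 d fetuses, which 7 ewes carried, and as the pair cannot be picked out each fetus was counted as 1 replicate. Breed and fetal sex were not used here.

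SLC25 proteins sit mostly in the inner mitochondrial membrane, where each carries a small set of metabolites, nucleotides or cofactors between the cytosol and the matrix. They are built from a repeated domain with a conserved signature, and most work by exchange of one substrate for another. The heart depends on such exchange, because its mitochondria take up fuels and reducing equivalents and give out adenine nucleotides. SLC25A10 exchanges malate or succinate for phosphate, and SLC25A11 exchanges 2-oxoglutarate for malate as part of the malate-aspartate shuttle. SLC25A26 brings the methyl donor S-adenosylmethionine into mitochondria, and SLC25A33 carries pyrimidine nucleotides. SLC25A38 is linked to glycine import for heme synthesis in red cell precursors. SLC25A17 differs from the rest in its place, the peroxisomal membrane, where it carries cofactors such as coenzyme A. These roles come from work in humans, rodents and yeast and were not measured in the sheep septum.

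Every level below is the signal of 1 probe of 60 bases, and the probes that a gene name or accession tied to the members are shown here because the whole account rests on what they hybridise to.
SLC25A10: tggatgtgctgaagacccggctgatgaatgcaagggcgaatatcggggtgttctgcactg
SLC25A11: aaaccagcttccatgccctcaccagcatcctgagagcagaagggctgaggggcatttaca
SLC25A17: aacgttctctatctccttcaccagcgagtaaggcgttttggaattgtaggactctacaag
SLC25A26: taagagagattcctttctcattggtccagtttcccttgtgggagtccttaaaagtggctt
SLC25A33: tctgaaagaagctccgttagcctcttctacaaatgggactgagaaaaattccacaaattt
SLC25A38: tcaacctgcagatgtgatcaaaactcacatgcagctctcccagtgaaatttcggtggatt
They are printed 5′ to 3′ as the scanner files give them, and the share of G and C runs from 38.3% in the SLC25A33 probe to 55% in those of SLC25A10 and SLC25A11. The other SLC25A11 probe is tied to the gene only by a description in the file, and it is called the description probe below, against the RefSeq probe printed above. Both SLC25A11 probes followed each other over the 27 arrays (Pearson r 0.889, and 0.925 over 26 arrays without cortisol 140 d replicate 4).

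Levels are log2 of the processed spot intensity minus the array's own 75th percentile, so that a level of 0 is as bright as the array's 75th percentile and a step of 1 is a doubling. Of the 15008 probes, 12778 met a minimum of 6 arrays on which the spot was well above background, and these were tested with limma, with Benjamini-Hochberg adjustment over all of them at a threshold of 0.05. All 7 member probes passed that filter. The SLC25A10 probe was well above background on only 12 of the 27 arrays and the other 6 probes on all of them. SLC25A10 was so on 2 of 7 cortisol 140 d, 3 of 8 control 140 d, 3 of 6 cortisol 130 d and 4 of 6 control 130 d arrays. No spot was saturated (0 spots), and between 77.0% and 87.0% of spots per array were well above background. The 75th percentile was lower on the older arrays, at 601.6 to 1079 (cortisol 140 d) and 757.3 to 954.4 (control 140 d), against 976.5 to 1195 (cortisol 130 d) and 976.7 to 1273 (control 130 d) intensity units. Scaling by the median or the authors' deposited table moved the median change of all tested probes between 140 d and 130 d up by 0.10 in the cortisol arm.

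One array stood apart before any comparison. The profile of cortisol 140 d replicate 4 correlated with the mean of its group's other arrays at r 0.962, against 0.978 to 0.992 for the other 26 arrays. Its summed level of the 5 measured fibroblast markers was 336.9, against 110.7 to 175.1 on the other 6 cortisol 140 d arrays (in multiples of the 75th percentile). Nearly all of that sum is VIM (vimentin) and DCN (decorin). Their median log2 levels were 7.05 and 5.52, against -2.49 for COL1A2, -2.25 for FBLN1 and -1.92 for COL3A1. The array's 6 measured immune markers summed to 2.38, against 0.732 to 1.04, and its 2 endothelial markers, of which PECAM1 was the brighter, to 6.43, against 3.71 to 4.42. Myoglobin (MB), the oxygen store of muscle and the only one of 17 listed cardiomyocyte markers measured under its name, was at 182.2 on that array and at 284.2 to 455.9 on the other 6, although it was well above background on all 27 arrays. The part of these differences in the carriers' levels was not tested. The carriers' comparisons that include this array are given with and without it, and so are the other genes whose call it changed. In bulk tissue, fewer cells of a type and less RNA per cell cannot be told apart.

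SLC25A33, the pyrimidine nucleotide carrier, was higher at 140 d than at 130 d in both arms, and it had the largest such difference of the 6 carriers. In the cortisol arm its lowest, median and highest levels were -1.36, -0.43 and 0.21 at 140 d, against -1.75, -1.32 and -1.16 at 130 d. The 7 older fetuses were all above the mean of the younger ones, and the groups overlapped only through replicate 4, which held the lowest value of its group. Its rise was 0.90 ± 0.20 on the log2 scale (SE, 7 against 6 fetuses; limma adjusted p = 0.0048), a ratio of 1.87. Without replicate 4 the groups did not overlap, a pattern seen in 9.75% of all tested probes, and the rise was 1.05 ± 0.18 (adjusted p = 5.4e-04). Only 191 of the 12778 probes had a larger increase in this arm. The unscaled intensity showed the same order, with medians of 679.8 at 140 d and 447.8 at 130 d.

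In the control arm SLC25A33 ran from -0.75 through a median of -0.49 to 0.31 at 140 d, against -1.84, -1.72 and -0.93 at 130 d. The groups did not overlap, which was so for 5.72% of all tested probes, and the highest younger control was replicate 2, set well off from the other 5. The difference was 1.26 ± 0.20 (SE, 8 against 6 fetuses), given as a description because it was known when the genes were chosen. The medians of the unscaled intensity were 619.5 at 140 d and 364.2 at 130 d. The order of the 4 groups by mean level was control 140 d (-0.36 ± 0.34), cortisol 140 d (-0.48 ± 0.52), cortisol 130 d (-1.38 ± 0.21) and control 130 d (-1.62 ± 0.34; SD, n as above). Only the step between cortisol 140 d and cortisol 130 d passed its test, and neither cortisol group differed from the control of its age beyond the spread.

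**Figure D1:**
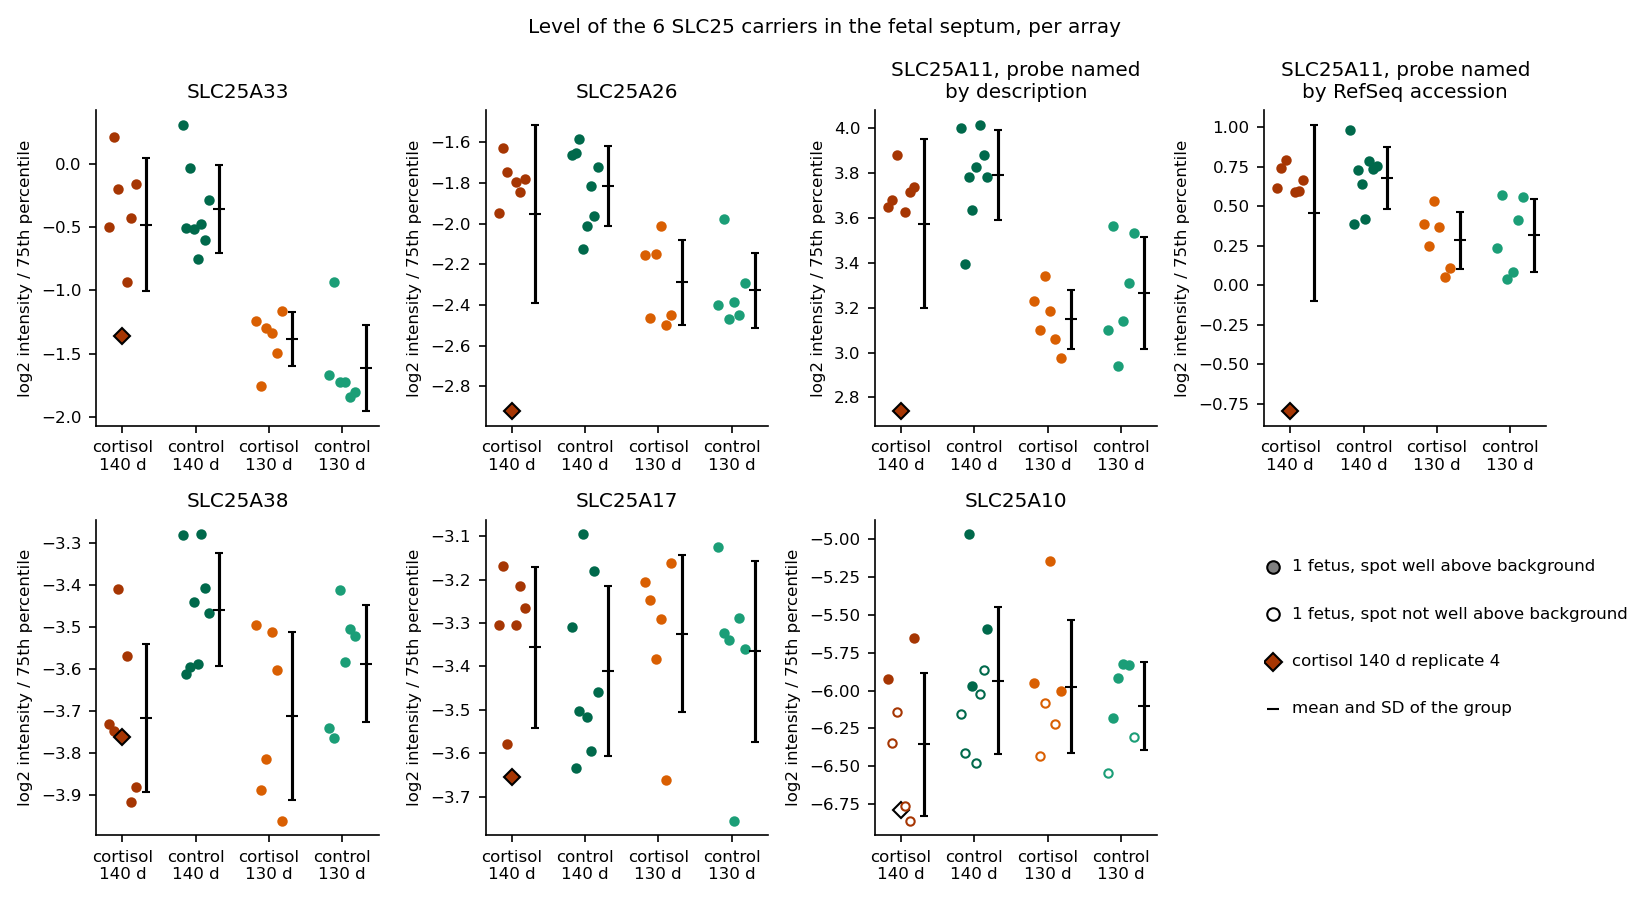
Level of each of the 7 probes (log2 of intensity over the array's 75th percentile) in every fetus, with the mean and SD of each group. Cortisol 140 d replicate 4, drawn as a diamond, is the lowest of its group for SLC25A33 (-1.36), SLC25A26 (-2.92) and both SLC25A11 probes (2.74 and -0.80), and open points are spots not well above background.

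SLC25A26, the S-adenosylmethionine carrier, differed less between the ages, and its test in the cortisol arm turned on 1 array. With cortisol its lowest, median and highest levels were -2.92, -1.80 and -1.63 at 140 d, against -2.50, -2.30 and -2.01 at 130 d. Of the 7 older fetuses 6 lay above the younger mean, while replicate 4 lay below every younger fetus. The change of 0.34 ± 0.15 (SE) did not pass the test (limma adjusted p = 0.15). Without replicate 4 the groups no longer overlapped, as was so for 9.75% of all tested probes, and SLC25A26 rose by 0.50 ± 0.11 (limma adjusted p = 0.0025).

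In the control arm the levels of SLC25A26 were -2.12, -1.77 and -1.58 at 140 d, against -2.47, -2.39 and -1.98 at 130 d, a difference of 0.51 ± 0.15 (SE). All 8 older controls lay above the younger mean, and the groups overlapped only through control 130 d replicate 2. Before scaling, the medians of SLC25A26 were nearly level, at 255 intensity units (cortisol 140 d) against 229.6 (cortisol 130 d), and 239 (control 140 d) against 232.2 (control 130 d). Its difference between the ages is thus one relative to the rest of each array.

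SLC25A11, the 2-oxoglutarate and malate carrier, was read by both of its probes, which moved the same way but not to the same side of the threshold. The description probe had lowest, median and highest levels of 2.74, 3.68 and 3.88 in cortisol 140 d fetuses, against 2.98, 3.14 and 3.34 in cortisol 130 d fetuses. Replicate 4 was the lowest of all 13 values, and the other 6 older fetuses were above every younger one. Without that array the groups were likewise apart in 9.75% of all tested probes. By this probe SLC25A11 rose by 0.43 ± 0.14 (SE; limma adjusted p = 0.0488). That call is marginal, since it was lost in 21 of 27 fits that each left out 1 array, with quantile normalization (0.32, adjusted p = 0.11), with normexp background correction (0.43, adjusted p = 0.18) and with slide as a fixed block (0.40, adjusted p = 0.081). Without replicate 4 it was 0.57 ± 0.11 (limma adjusted p = 9.9e-04).

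The RefSeq probe of SLC25A11 ran from -0.80 through a median of 0.61 to 0.79 at 140 d with cortisol, against 0.05, 0.31 and 0.53 at 130 d with cortisol. Again replicate 4 was below all others and the other 6 were above every younger fetus, beside the same 9.75% of all tested probes. The change of 0.17 ± 0.18 (SE) did not pass the test (limma adjusted p = 0.58), and without replicate 4 it was 0.38 ± 0.11 (limma adjusted p = 0.016). The mean of both probes gave 0.30 (limma adjusted p = 0.22). In the control arm the description probe differed by 0.53 ± 0.14 and the RefSeq probe by 0.36 ± 0.18 (SE, 140 d minus 130 d), and all 8 older controls lay above the younger mean by either probe. For the RefSeq probe the medians of the unscaled intensity were 1391 (control 140 d) and 1398 (control 130 d), so that this difference too is relative to the array.

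**Figure D2:**
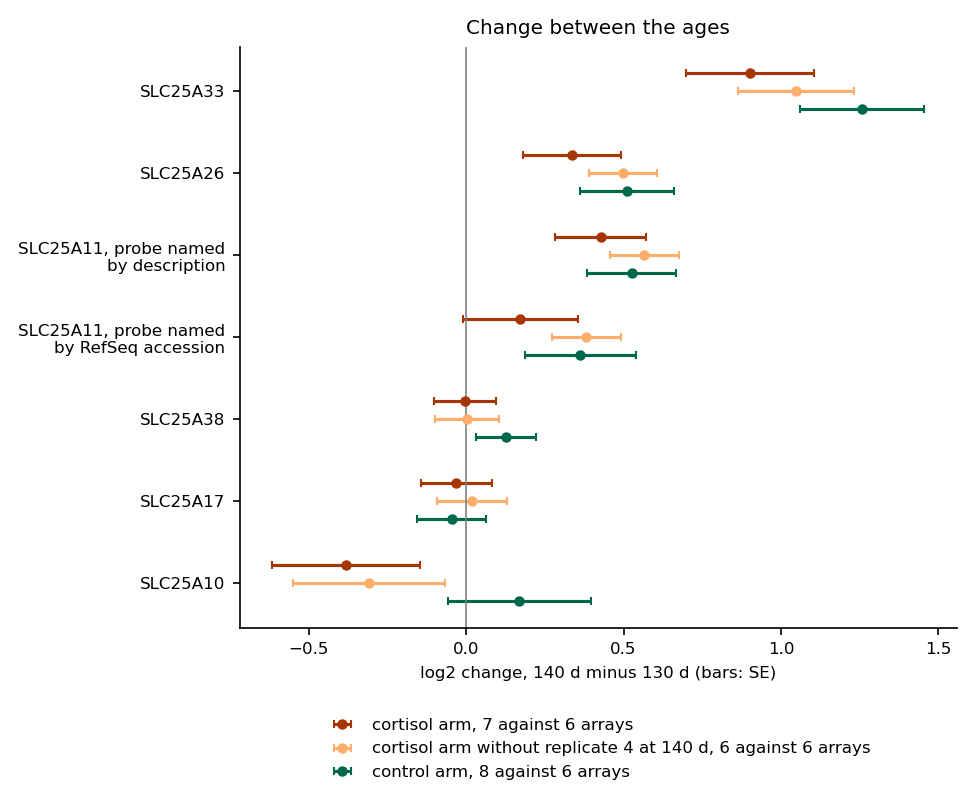
Change between the ages for the 7 probes, 140 d minus 130 d on the log2 scale with its SE, in the cortisol arm, in the cortisol arm without replicate 4 at 140 d, and in the control arm. SLC25A33 lies farthest to the right in each (0.90, 1.05 and 1.26), and leaving out replicate 4 moves SLC25A26 and SLC25A11 up.

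The other 3 carriers did not pass the test between the ages. SLC25A38, the glycine carrier linked to heme synthesis, had lowest, median and highest levels of -3.92, -3.75 and -3.41 in cortisol 140 d fetuses, against -3.96, -3.71 and -3.49 in cortisol 130 d fetuses. The groups covered nearly the same range, and the change was -0.00 ± 0.10 (SE, limma adjusted p = 0.98), or 0.00 ± 0.10 without replicate 4. In controls its levels were -3.61, -3.46 and -3.28 at 140 d, against -3.76, -3.55 and -3.41 at 130 d, a difference of 0.13 ± 0.10 (SE). Of the red cell markers, which bear on this gene's best known tissue, HBB (beta globin) changed by -1.35 ± 0.60 with cortisol and AHSP, the chaperone of free alpha globin, by -1.92 ± 0.73 (limma adjusted p = 0.13 and 0.077). The third one measured, the erythropoietin receptor EPOR, changed by 0.11 ± 0.12 (limma adjusted p = 0.59), so 0 of 3 passed, with or without replicate 4. In the control arm the same differences were -2.0 ± 0.58 for HBB, -3.26 ± 0.70 for AHSP and 0.22 ± 0.12 for EPOR.

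SLC25A17, the peroxisomal cofactor carrier, was equally level, at -3.65, -3.30 and -3.17 with cortisol at 140 d, against -3.66, -3.27 and -3.16 with cortisol at 130 d. The change was -0.03 ± 0.11 (SE, limma adjusted p = 0.89), and it turned positive, at 0.07, when arrays were scaled by the median and, at 0.02, without replicate 4. Control fetuses had -3.63, -3.48 and -3.10 at 140 d, against -3.76, -3.33 and -3.13 at 130 d, a difference of -0.05 ± 0.11 (SE) that also turned positive, at 0.04, with the median. No direction is therefore given for SLC25A17.

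SLC25A10, the dicarboxylate carrier, was near background, with unscaled intensities of 5.43 to 31.3 units over all arrays. With cortisol its levels were -6.86, -6.34 and -5.65 at 140 d, against -6.43, -6.04 and -5.15 at 130 d, and the groups overlapped. The change was -0.38 ± 0.23 (SE, limma adjusted p = 0.30), or -0.31 ± 0.24 without replicate 4 (limma adjusted p = 0.40). In controls its levels were -6.48, -6.0 and -4.96 at 140 d, against -6.55, -6.05 and -5.83 at 130 d, a difference of 0.17 ± 0.23 (SE). Since most of these spots did not rise clearly out of the background, the order of its groups is not read.

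Counted by gene, with the brightest probe for SLC25A11, 2 of the 6 carriers were called higher at 140 d with cortisol (SLC25A33 and SLC25A11) and 0 lower. Of all tested probes, 13.5% were called in this comparison, made up of 4.94% of all tested probes called higher and 8.52% called lower. Without replicate 4 the carriers called were 3 of 6, all higher, with SLC25A26 added, and the background was 18.9% in either direction. The median change of the 6 carriers was 0.17, and 0.26 without replicate 4, beside -0.04 and -0.05 for all tested probes. In the control arm 3 of 6 were past the same threshold (SLC25A33, SLC25A11 and SLC25A26), all higher, where 19.1% of all probes were in either direction, and the medians were 0.34 for the carriers and -0.01 for all probes. That count takes in the comparison known beforehand and carries no test.

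The arrays lay on 5 slides, each read in a scan of its own, and slides 2, 3 and 4 held all 4 groups, with 1 or 2 arrays of each. Slide 1 held 1 cortisol 140 d array and slide 5 held 4 arrays, all of 140 d fetuses. Neither held a younger array, so age and slide are partly tied together in the fit over all arrays. Within slides 2, 3 and 4 the change of SLC25A33 with cortisol, 140 d minus 130 d, was 1.51, 0.17 and 0.90, beside 0.90 over all arrays. Slide 3 holds replicate 4, and without that array its value, from 1 older fetus, was 0.39. In controls the same slides gave 1.20, 1.45 and 1.07, beside 1.26 over all arrays, so SLC25A33 kept its sign in each of these slides in both arms. With slide as a fixed block, SLC25A33 rose by 0.88 in the cortisol arm (limma adjusted p = 0.0074).

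SLC25A26 and SLC25A11 did not keep their sign throughout. In the cortisol arm SLC25A26 changed by 0.62, -0.28 and 0.63 within slides 2, 3 and 4, and the description probe of SLC25A11 by 0.62, -0.08 and 0.70. Both values of slide 3 were above 0 without replicate 4, at 0.28 and 0.36. In controls SLC25A26 differed by 0.53, 0.57 and 0.36 within the same slides, and the description probe by 0.37, 0.67 and 0.41. The RefSeq probe gave 0.45, -0.56 and 0.51 with cortisol and 0.28, 0.62 and -0.07 in controls.

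**Figure D3:**
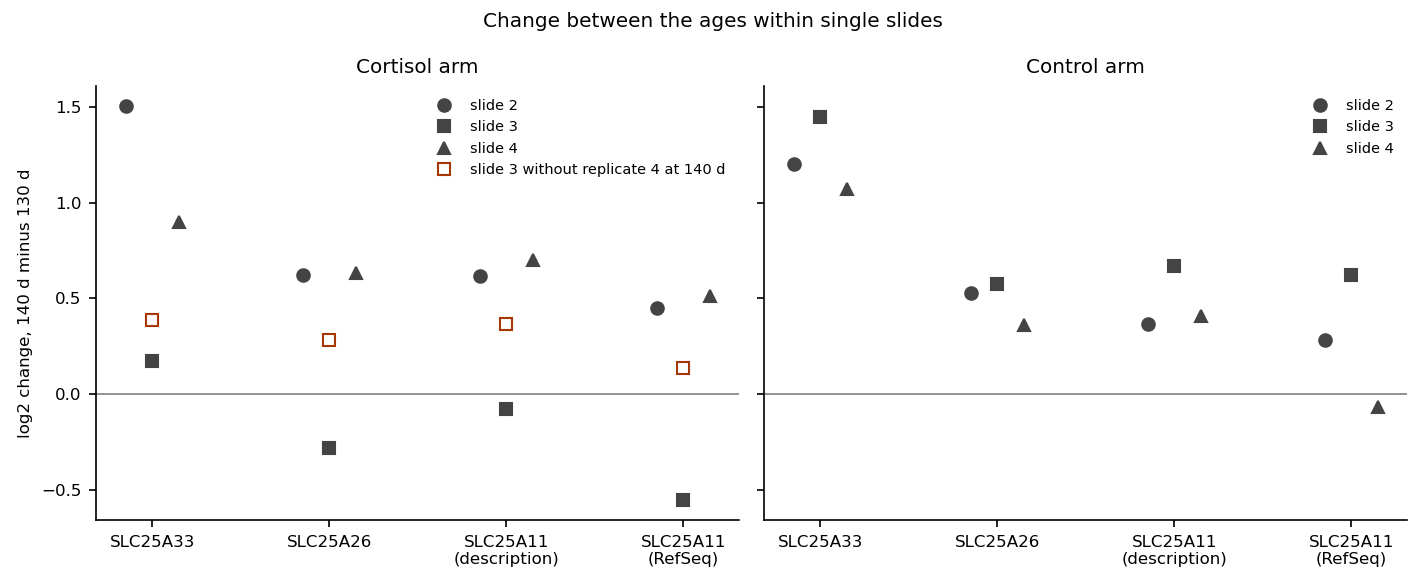
Change of SLC25A33, SLC25A26 and both SLC25A11 probes between the ages within each of the 3 slides that hold all groups (140 d minus 130 d, log2 scale, from 1 or 2 arrays a group), with the cortisol arm on the left. The negative values plotted for the cortisol arm lie on slide 3 and move above 0, as the open squares, when replicate 4 at 140 d is left out.

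Maternal cortisol was not followed by a detected change of any of the 6 carriers. At 130 d, 0 of 6 carriers and 0 of all 12778 probes (0%) passed the test between cortisol and control, and at 140 d the counts were again 0 and 0 (0%). At an unadjusted p under 0.05 there were 455 probes at 130 d and 727 at 140 d, and the smallest limma adjusted p over all probes was 0.60 and 0.49. Leaving out replicate 4 gave 0 of 6 carriers at either age as well. The counts do not show equal levels, and the intervals below say which sizes remain possible.

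For SLC25A33 the levels at 130 d were -1.75, -1.32 and -1.16 with cortisol, against -1.84, -1.72 and -0.93 in controls. Of the 6 cortisol fetuses 5 lay above the control mean, and the difference was 0.23, with a 95% confidence interval of -0.20 to 0.67. At 140 d the difference of SLC25A33 was -0.12, with an interval of -0.51 to 0.27, and it was 0.02 without replicate 4. The sign of the older comparison thus hung on 1 array.

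SLC25A38 came nearest to a difference with cortisol. At 140 d its levels were -3.92, -3.75 and -3.41 in cortisol fetuses, against -3.61, -3.46 and -3.28 in controls, and 6 of 7 cortisol fetuses lay below the control mean. The difference was -0.26 ± 0.09 (SE), with an interval of -0.44 to -0.07 that is not adjusted for the number of probes. It did not pass the test across all probes (limma adjusted p = 0.81), and it was -0.25 ± 0.09 without replicate 4 (limma adjusted p = 0.95). Over 36 single-setting alternatives and leave-one-out fits this difference ran from -0.31 to -0.0039, and 0 of 36 called it. Leaving out 1 array in turn kept it between -0.31 and -0.22, so the value near 0 came from a processing alternative. At 130 d it was -0.12, with an interval of -0.33 to 0.08, and with normexp background correction the sign at 130 d turned, to 0.35.

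For the remaining carriers the intervals at 140 d, cortisol minus control, were -0.43 to 0.16 for SLC25A26, -0.49 to 0.06 for the description probe of SLC25A11 and -0.57 to 0.13 for its RefSeq probe. These 3 rest on replicate 4. Without it the differences were 0.03 ± 0.10 for SLC25A26, in place of -0.14, -0.08 ± 0.10 for the description probe, in place of -0.22, and -0.01 ± 0.10 for the RefSeq probe, in place of -0.22 (SE). For SLC25A17 the interval was -0.16 to 0.27, and for SLC25A10 it was -0.87 to 0.03, the widest, and without replicate 4 their differences were 0.11 ± 0.10 and -0.35 ± 0.23 (SE). At 130 d the intervals were -0.29 to 0.37 for SLC25A26, -0.42 to 0.19 for the description probe of SLC25A11, -0.42 to 0.36 for its RefSeq probe, -0.20 to 0.28 for SLC25A17 and -0.37 to 0.63 for SLC25A10. Each of these spans 0.

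**Figure D4:**
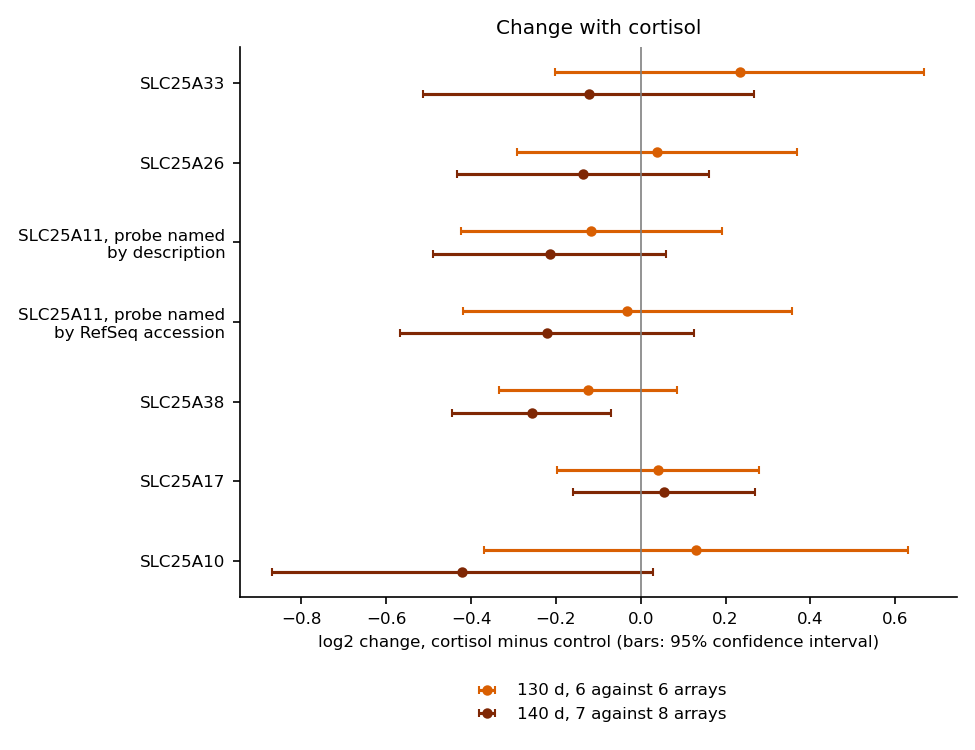
Change with maternal cortisol, cortisol minus control on the log2 scale with its 95% confidence interval, at 130 d and at 140 d. Only the interval of SLC25A38 at 140 d (-0.44 to -0.07) leaves out 0, and it is not adjusted for the number of probes.

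The cortisol effect was not shown to differ between the ages for any carrier. The difference of the effects, 140 d minus 130 d, was -0.36 ± 0.28 for SLC25A33 and -0.55 ± 0.33 for SLC25A10, and between -0.19 and 0.01 for the other 5 probes (SE from limma, smallest adjusted p of the 7 probes 0.96). Without replicate 4 it was -0.21 ± 0.25 for SLC25A33 and -0.48 ± 0.33 for SLC25A10, and between -0.13 and 0.06 for the other 5 probes. Over all probes 0 of 12778 (0%) passed, 743 had an unadjusted p under 0.05, and the smallest adjusted p was 0.20. The larger age difference of SLC25A33 in controls (1.26) than with cortisol (0.90) is this same difference, so it is not a result.

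Across the 27 arrays the carriers fell into those that varied together and those that did not. Pearson r was 0.85 for SLC25A26 with SLC25A33, 0.84 for SLC25A11 with SLC25A26 and 0.79 for SLC25A11 with SLC25A33, and 0.90, 0.81 and 0.81 over 26 arrays without replicate 4. The other 12 pairs of carriers lay between -0.23 and 0.38. The points share the array's own scaling and the 2 ages, so these coefficients are given as a description.

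**Figure D5:**
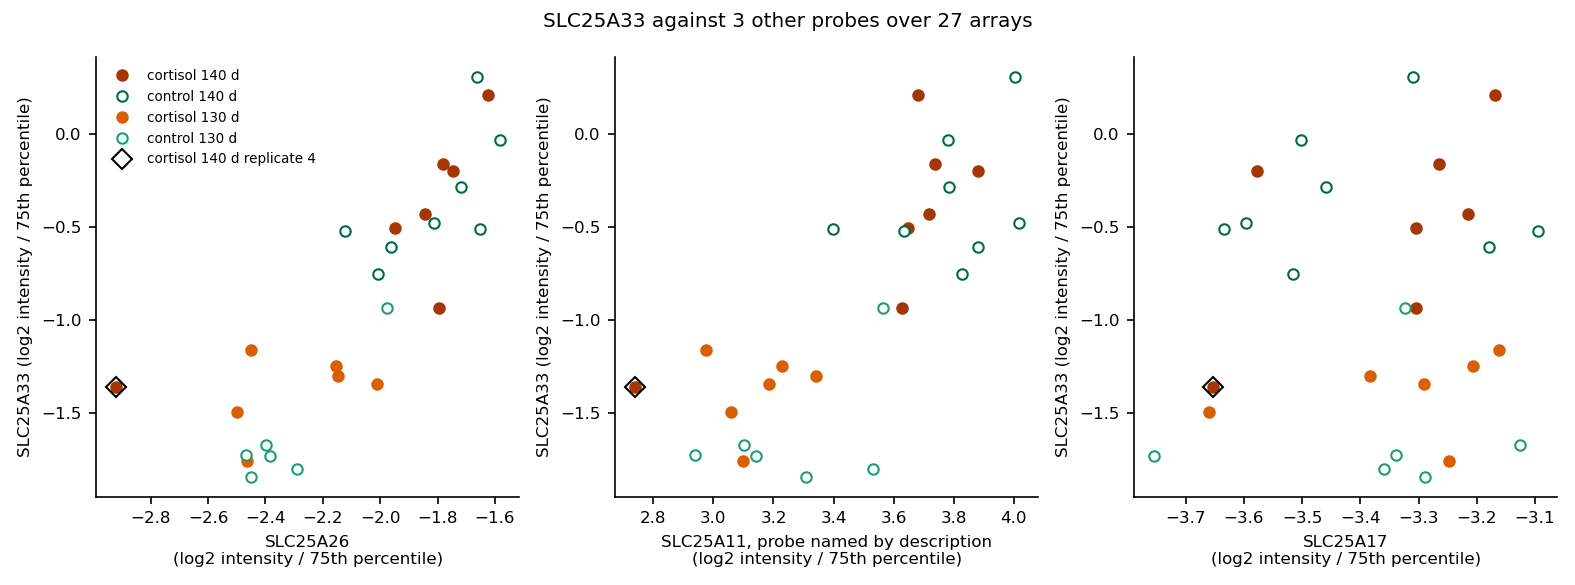
SLC25A33 against SLC25A26, the description probe of SLC25A11 and SLC25A17, each point 1 array (both axes log2 of intensity over the 75th percentile). Most arrays of 140 d lie up and to the right of those of 130 d in the first 2 panels (r 0.85 and 0.79). There, cortisol 140 d replicate 4 is level with the younger arrays for SLC25A33 (-1.36) but to the left of all of them (-2.92 and 2.74). Control 130 d replicate 2 (SLC25A33 at -0.93) lies among the older arrays, and the third panel shows no such order (r 0.05).

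Of 799 other named genes, those most like SLC25A33 over the arrays were CHCHD3 (r 0.90), a scaffold protein of the mitochondrial cristae, and SLC25A6 (r 0.89), an adenine nucleotide carrier. SLC25A26 was most like GRPEL1 (r 0.88), a cofactor of mitochondrial protein import, and CHCHD3 (r 0.88). SLC25A11 was most like NDUFA12 (r 0.92), a subunit of respiratory complex I, and ENDOG (r 0.92), a mitochondrial nuclease. The partners of the other 3 carriers were looser, with RPA1 (r 0.66) and ARF1 (r 0.65) for SLC25A17, ART5 (r 0.64) and GLUT8 (r 0.56) for SLC25A38, and IGFBP3 (r 0.57) and CYP11B1 (r 0.55) for SLC25A10. Over 26 arrays without replicate 4 the same partners of SLC25A33, SLC25A26 and SLC25A11 had r between 0.84 and 0.94, and those of the other 3 between 0.54 and 0.64.

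Among the other SLC25 carriers, those that rose at 140 d with cortisol were the adenine nucleotide carriers SLC25A4 (0.83 ± 0.14, limma adjusted p = 7.5e-04) and SLC25A6 (0.85 ± 0.14, limma adjusted p = 5.3e-04), which export the ATP made in mitochondria. SLC25A5, SLC25A20, SLC25A37 and UCP1 did not pass the test. Both calls held without replicate 4 (0.91 and 0.94). In controls the differences were 0.86 ± 0.14 for SLC25A4 and 0.93 ± 0.14 for SLC25A6.

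The genes listed around each carrier's substrate were thinly covered. Of the pyrimidine nucleotide list only 2 of 24 genes were measured, and TYMS, which makes thymidylate for DNA synthesis, fell by 1.72 ± 0.39 at 140 d with cortisol (limma adjusted p = 0.0045), while UMPS, of pyrimidine synthesis, changed by -0.20 (adjusted p = 0.29). Without replicate 4 TYMS changed by -1.49 ± 0.37 (limma adjusted p = 0.0067). In controls TYMS differed by -1.49 ± 0.38, the opposite sign to SLC25A33. The lists of the malate-aspartate shuttle and tricarboxylic acid cycle, of methionine metabolism and of peroxisomes had 0 measured genes. Of 3 glutathione genes 0 passed with cortisol, with GLRX2, a mitochondrial glutaredoxin, at 0.44 ± 0.17 (limma adjusted p = 0.079). Without replicate 4, 1 of 3 passed, since GLRX2 rose by 0.59 ± 0.14 (limma adjusted p = 0.0051). In controls GLRX2 differed by 0.70 ± 0.16 and GSTA1, a glutathione transferase, by 0.39 ± 0.10, while GLRX differed by -0.54 ± 0.65. Of 4 regulators of mitochondrial biogenesis 0 passed with cortisol, and PPARA, a receptor that controls fatty acid oxidation, was at 0.37 ± 0.14 (limma adjusted p = 0.07), beside 0.40 ± 0.13 in controls. Without replicate 4, 1 of 4 passed, with PPARA at 0.44 ± 0.13 (limma adjusted p = 0.021). The others, PPARGC1A, NRF1 and GABPA, changed by -0.0046, -0.15 and 0.06 with cortisol, and by -0.07, -0.31 and 0.07 without replicate 4. In controls they differed by 0.16, 0.01 and 0.25. UROD, the 1 measured heme gene, changed by 0.22 ± 0.12 with cortisol (limma adjusted p = 0.24), and by 0.31 ± 0.11 without replicate 4 (adjusted p = 0.055).

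Markers of cell types moved between the ages as well. In controls MB was higher at 140 d by 0.48 ± 0.15, and the immune markers ITGB2 (-1.02 ± 0.24), FCER1G (-1.16 ± 0.31) and LYZ (-1.41 ± 0.41) and the collagen gene COL3A1 (-0.59 ± 0.21) were lower. With cortisol 0 of 6 immune and 0 of 5 fibroblast markers passed the test, and MB changed by 0.19 ± 0.16 (limma adjusted p = 0.46). The fibroblast count rests on replicate 4, the array with the highest summed fibroblast level. Without it 2 of 5 fell, COL3A1 by 0.72 ± 0.20 and VIM, the filament protein vimentin, by 0.66 ± 0.21 (limma adjusted p = 0.015 and 0.032). Of 2 measured endothelial markers, the receptor KDR fell by 0.63 ± 0.18 in that fit (limma adjusted p = 0.018), against -0.54 ± 0.19 with all arrays (adjusted p = 0.053). The other, PECAM1, went the opposite way and did not pass, at 0.24 ± 0.17 with all arrays and 0.14 ± 0.16 in that fit (limma adjusted p = 0.37 and 0.57). MB then changed by 0.32 ± 0.13 (limma adjusted p = 0.080), and 0 of 6 immune markers passed. The summed fibroblast level, nearly all VIM and DCN, was 110.7 to 336.9 at 140 d, against 184.6 to 234.4 at 130 d with cortisol, and 80.6 to 183 at 140 d, against 142.3 to 222.1 at 130 d in controls. Of 5 adipocyte markers 2 rose with cortisol and 0 fell, with or without replicate 4. LPL, which frees fatty acids from lipoproteins and is also made by heart muscle, rose by 0.87 ± 0.19 (limma adjusted p = 0.0036), and PLIN1, a coat protein of lipid droplets, by 0.48 ± 0.13 (limma adjusted p = 0.014). The 3 that did not pass were PPARG at 0.77, LEP, which encodes leptin, at 0.04 and FABP4 at -0.29 (limma adjusted p = 0.060, 0.86 and 0.89). In controls LPL differed by 0.77 ± 0.18, PLIN1 by 0.48 ± 0.12 and LEP by 0.51 ± 0.11, with PPARG (0.57 ± 0.26) and FABP4 (0.22 ± 0.99) not past the threshold. The part of these shifts in the changes of SLC25A33, SLC25A11 and SLC25A26 was not tested.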

How the data were processed

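The authors deposited each array's scanner output, whose processed intensity per spot is already corrected for background and spatial trend and, per the file headers, has no scaling across arrays. The submitters' processing notes name Agilent Feature Extraction 10.1.1.1. The series also has a deposited table of log2 values; set against the scanner values, each column was log2 intensity less a constant of its array (residual SD at most 2.06e-06, column medians 0.0864 to 0.121), and what set the constant is not given in the sources used here. The deposited flags for spots well above background, outlying and saturated were used as well, per the file headers. Control and outlying spots were left out, spots of a probe averaged, and log2 intensity centred on each array's 75th percentile. Group means of all 27 arrays were fitted for 12778 probes with lmFit and eBayes (limma 3.58.1, R 4.3.3), with no batch term, and 83 of these probes lacked a value on some array. The fit was tested on simulated data. Symbols came from the supplied sheep RefSeq table and the files' own names (1226 tested probes, 9.59%, 805 genes).

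The members and the lists of context and marker genes were chosen with earlier results of these data known. All members were named, with each list gene past the threshold (at most 4 per list and direction) and the 2 most correlated named genes. One listed carrier is not reported here. The number of arrays limits the precision. Alternatives were normexp (offset 50), quantile or median scaling, the deposited table, no filter, slide or replicate number as a block, the mean of a gene's probes, and leaving out arrays; leaving out 2 arrays together was added after seeing the data.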

Additional observations from a re-analysis of the deposited data

Results flagged for a closer look

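Of 28 sets of 1 probe in 1 group, 7 held a sample set apart from the rest of its group by a gap that takes up most of the group's range. Chance alone marks about 1 set in 20. The 28 sets share arrays, and some of their probes vary together, so their count is not weighed against that rate. Of the 7, 3 came from cortisol 140 d replicate 4, which was low for the RefSeq probe of SLC25A11 (-0.80, next 0.59), for its description probe (2.74, next 3.63) and for SLC25A26 (-2.92, next -1.95). Control 130 d replicate 2 was high for SLC25A33 (-0.93, next -1.67) and SLC25A26 (-1.98, next -2.29). Control 130 d replicate 4 was low for SLC25A17 (-3.76, next -3.36). Cortisol 130 d replicate 4 was high for SLC25A10 (-5.15, next -5.95), a probe near background.

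Without both cortisol 140 d replicate 4 and control 130 d replicate 2, a choice made after seeing the data, SLC25A33 rose by 1.05 with cortisol between 130 d and 140 d (limma adjusted p = 1.8e-04), and its difference in controls was 1.39. The change with cortisol is that without replicate 4 alone, since control 130 d replicate 2 is not in that arm. That array was the highest younger control for SLC25A33, so leaving it out could only raise the difference in controls. These values are not read as support.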

How the results depend on the processing

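SLC25A33 kept its direction and its call between the ages with cortisol in all 36 single-setting alternatives and leave-one-out fits (0.73 to 1.05, limma adjusted p 5.4e-04 to 0.042). The description probe of SLC25A11 was called in 9 of 36 and SLC25A26 in 1 of 36. The carriers called in that comparison numbered 1 with normexp, quantile normalization, no filter, slide as a fixed block, the replicate block and the mean of a gene's probes. Leaving out 1 array in turn gave 1 to 3 carriers and 1287 to 2419 probes, against 1720 in all. In controls it gave 3 to 3 carriers and 1649 to 3205 probes, against 2443. The carrier counts in controls, here and with normexp, take in the comparison known beforehand and carry no test. For the difference of the cortisol effects, leaving out 1 array gave 0 to 2 probes. With normexp the control age comparison had 1 carrier and 536 probes and the cortisol one 339 probes. Whether the replicate numbers pair the fetuses was not settled. Of 36 correlations of deviations between same-numbered arrays 12 were over 0.1 (-0.17 to 0.36), but differently numbered arrays were not compared and many same-numbered ones shared a slide. With replicate number as a block the difference of effects had 1 probe and SLC25A38 between the ages with cortisol was 0.0050. The following changed sign, none of them called, except the description probe of SLC25A11, which within slide 3 with cortisol was -0.080. Normexp turned SLC25A38 at 130 d (0.35), SLC25A10 at 140 d (0.089), SLC25A17 between the ages in controls (0.19) and its difference of effects (-0.31). Quantile, median and deposited values of SLC25A17 were 0.057, 0.044 and 0.049 in controls and 0.091, 0.071 and 0.071 with cortisol, and those of SLC25A38 with cortisol 0.12, 0.097 and 0.098. Slide as a fixed block gave SLC25A10 -0.013 in controls. Without the 2 arrays set apart, the RefSeq probe of SLC25A11 was 0.019 at 130 d, SLC25A26 0.026 and SLC25A33 0.024 at 140 d, and SLC25A17 0.019 and SLC25A38 0.0029 between the ages with cortisol. Leaving out 1 array gave, at 130 d, SLC25A10 -0.036 to 0.22, the RefSeq probe -0.087 to 0.019, SLC25A17 -0.037 to 0.11 and SLC25A26 -0.016 to 0.11, and at 140 d SLC25A26 -0.19 to 0.026 and SLC25A33 -0.24 to 0.024. Between the ages it gave SLC25A17 -0.12 to 0.0020 in controls and -0.098 to 0.019 with cortisol, and SLC25A38 -0.056 to 0.039 with cortisol. For the difference of effects it gave the RefSeq probe -0.24 to 0.019, the description probe -0.16 to 0.041 and SLC25A17 -0.052 to 0.093. Beyond what an alternative itself leaves out, the cause of these changes was not tested. SLC25A10, near background on most arrays, is limited by signal.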
